A study of Mus musculus with 8 samples.

Results

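Genes of platelets and the gene for the A subunit of coagulation factor XIII were followed in leukocytes isolated from mouse muscle and bone marrow. The set held 6 genes, Pf4, Ppbp, F13a1, Itga2b, Gp9 and Gp1bb, of the 12393 genes that the array annotation names with a single symbol. They were taken by name: every probe set annotated to one of these symbols or a synonym was kept, which gave 7 probe sets, 2 of them for Gp1bb. A further probe set (1), annotated to both Septin5 and Gp1bb, was left out because its signal cannot be given to either gene.

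Cells bearing CD45, the leukocyte surface protein encoded by Ptprc, and Sca1, a surface antigen of stem cells and of some mature leukocytes, were isolated from C57BL/6 mice aged 6 to 8 weeks, and their RNA was hybridised to 8 Affymetrix Mouse430A arrays. The 4 groups, with 2 arrays each, were cells from muscle injured with cardiotoxin in mice that had a bone marrow transplant (transplanted injured muscle), cells from cardiotoxin-injured muscle of mice without a transplant (untransplanted injured muscle), cells from muscle with neither treatment (uninjured muscle), and cells from bone marrow. Cardiotoxin is a snake venom toxin that kills muscle fibres and starts their regeneration. The labels used here do not state the time after injury, the number or pooling of mice, or the donor or host origin of cells in transplanted mice, so the p-values measure the spread between arrays, which may be technical.

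Ptprc was bright on all 8 arrays, at 4924 to 6996 intensity units, and was not called in any comparison of groups. Ly6a, the gene for Sca1, had no probe set under that symbol in the annotation, so the other gate marker was not checked. The RNA of the groups differed in the ratio of 3′ to 5′ control probe sets, which rises when labelled RNA is shorter. For Gapdh it was 0.882 and 0.868 in transplanted and 0.833 and 0.808 in untransplanted injured muscle, against 46.9 and 13.6 in uninjured muscle and 24.4 and 10.7 in bone marrow. For beta-actin it was 1.18 to 1.23 on the 4 injured arrays, against 19.0 and 10.1 in uninjured muscle and 5.75 and 5.68 in bone marrow. Replicate arrays were correlated on the log2 scale over the 16289 probe sets tested below. The r was 0.957 in transplanted injured muscle, 0.956 in untransplanted injured muscle, 0.837 in uninjured muscle and 0.929 in bone marrow, so the uninjured muscle arrays stood furthest apart. Member values that were called against or in uninjured muscle are given below with each of its arrays left out. Differences between injured groups and the other groups cannot be told apart from this difference in RNA, and fewer cells of a type cannot be told apart from less RNA per cell. Uninjured muscle and bone marrow overlapped in the Gapdh ratio but differed in that of beta-actin, so the limit on RNA holds between them too.

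Megakaryocytes, the marrow cells that shed platelets, load alpha granules with chemokines and clotting proteins and cover the platelet surface with adhesion receptors. Pf4 encodes platelet factor 4 (CXCL4) and Ppbp the precursor of the CXCL7 group of chemokines, both released from alpha granules. F13a1 encodes the catalytic subunit of factor XIII, a transglutaminase that crosslinks fibrin, and it is made by monocytes and macrophages as well as by megakaryocytes; Pf4 is also known from tissue macrophages. Itga2b encodes the alpha chain of the platelet fibrinogen receptor (CD41), which early blood progenitors carry too, and Gp9 and Gp1bb encode subunits of the receptor for von Willebrand factor.

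The start regions of 4 members are shown to set the 3 members that were called beside Itga2b, which was not, and because Pf4 and Ppbp are neighbours. Each is the 300 bases from 250 before to 50 after a transcription start in RefSeq (GRCm38.p6), read 5′ to 3′ on the gene's strand. Capitals mark matches on either strand to 3 motifs, none of which overlapped another. The first is the site of erythroid and megakaryocyte zinc finger factors such as Gata1, searched as AGATAA. The second is a site of PU.1 and other ETS factors, searched as GAGGAA. The third is a core of MAF sites, searched as TGCTGA.
Pf4, chr5:90772185-90772484, strand plus: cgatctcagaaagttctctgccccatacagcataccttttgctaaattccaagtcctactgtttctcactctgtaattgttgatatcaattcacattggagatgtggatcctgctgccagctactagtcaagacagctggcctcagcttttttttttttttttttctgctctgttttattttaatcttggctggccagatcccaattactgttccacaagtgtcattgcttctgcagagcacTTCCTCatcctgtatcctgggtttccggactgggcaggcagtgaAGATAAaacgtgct
Ppbp, chr5:90768268-90768567, strand plus: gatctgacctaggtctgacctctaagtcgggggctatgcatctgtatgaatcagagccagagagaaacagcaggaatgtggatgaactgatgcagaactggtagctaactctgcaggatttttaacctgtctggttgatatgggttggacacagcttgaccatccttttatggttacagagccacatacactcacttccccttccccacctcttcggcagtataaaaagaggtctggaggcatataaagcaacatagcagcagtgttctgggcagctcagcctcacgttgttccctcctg
F13a1, chr13:37050195-37050494, strand minus: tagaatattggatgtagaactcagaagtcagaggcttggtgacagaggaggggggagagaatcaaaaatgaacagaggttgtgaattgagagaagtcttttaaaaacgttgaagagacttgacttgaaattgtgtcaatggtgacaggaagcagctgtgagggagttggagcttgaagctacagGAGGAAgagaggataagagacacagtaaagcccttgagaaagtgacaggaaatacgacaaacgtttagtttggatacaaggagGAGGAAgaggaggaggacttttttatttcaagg
F13a1, chr13:37049164-37049463, strand minus: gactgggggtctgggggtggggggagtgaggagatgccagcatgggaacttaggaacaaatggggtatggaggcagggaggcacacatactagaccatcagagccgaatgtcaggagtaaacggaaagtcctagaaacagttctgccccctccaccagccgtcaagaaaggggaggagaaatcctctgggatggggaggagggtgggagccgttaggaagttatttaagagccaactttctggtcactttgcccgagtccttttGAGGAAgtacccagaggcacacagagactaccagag
Itga2b, chr11:102469834-102470133, strand minus: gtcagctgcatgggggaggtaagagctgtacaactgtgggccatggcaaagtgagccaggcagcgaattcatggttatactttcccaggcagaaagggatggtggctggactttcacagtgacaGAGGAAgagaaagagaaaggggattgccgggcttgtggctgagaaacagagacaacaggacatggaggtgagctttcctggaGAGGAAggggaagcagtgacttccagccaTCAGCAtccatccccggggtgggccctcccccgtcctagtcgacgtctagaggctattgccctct

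Pf4 and Ppbp start 3917 bases apart on chromosome 5. The Pf4 window held 1 GATA match, at base 37 after the start, and 1 ETS match, at -8. None of the searched letters occurred in the Ppbp window. F13a1 has 2 annotated starts, whose windows held 2 ETS matches (at -66 and 18) and 1 ETS match (at 15). The Itga2b window held 2 ETS matches (at -126 and -44) and 1 MAF match (at -15). The Gp9 window held 1 ETS match, and that of Gp1bb none of these letters. Of all 32851 annotated windows of the same length, 11.2% held the GATA letters, 28.3% the ETS letters and 19.5% the MAF letters, so matches of this kind are common.

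Levels were compared as log2(intensity + 4) with limma over all 8 arrays, and a probe set was called at a Benjamini-Hochberg adjusted p under 0.05 over the 16289 probe sets tested. A probe set was tested when at least 2 arrays reached 38.4 intensity units, the 40th percentile of all values. By this rule 6 of the 7 member probe sets, covering all 6 genes, were tested.

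In the main fit the genes of secreted proteins, Pf4, Ppbp and F13a1, gave all the calls. The genes of surface receptors, Itga2b, Gp9 and Gp1bb, gave none in any of the 6 comparisons. The receptor genes were also dimmer, reaching 232 units at most (Itga2b), against 309 for Ppbp, 7472 for F13a1 and 9385 for Pf4. Role was not tested apart from brightness. Transplanted injured muscle over bone marrow had 3 of 6 members higher, Pf4, Ppbp and F13a1, beside 15.1% of all tested probe sets higher and 17.4% lower. Untransplanted injured muscle over bone marrow had the same 3 of 6 higher, beside 15.5% of probe sets higher and 15.5% lower. Uninjured muscle over bone marrow had 2 of 6 higher, Pf4 and F13a1, beside 4.83% higher and 1.25% lower. These 3 comparisons share the bone marrow arrays, so their calls are not independent.

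Between muscle groups 1 of 6 members was called at most. Transplanted over untransplanted injured muscle had F13a1 lower (1 of 6), beside 0.227% of tested probe sets lower and 0.0246% higher. Transplanted injured over uninjured muscle also had F13a1 lower (1 of 6), beside 18.5% lower and 13.9% higher. Untransplanted injured over uninjured muscle had 0 of 6 called by limma, beside 12.1% of tested probe sets higher and 13.9% lower. In that comparison the unadjusted p was under 0.05 for 2 members, Ppbp (0.0285) and Gp1bb (0.0361). The share of all calls that were higher depended on the scaling: median centring gave 59.0%, against 42.9%, in transplanted injured over uninjured muscle, and quantile normalization gave 22.2%, against 9.76%, in transplanted over untransplanted injured muscle. In the latter comparison calls were few, 41 as reported with 4 of them higher, and as few as 9 under other processing, so its shares are imprecise.

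**Figure D1:**
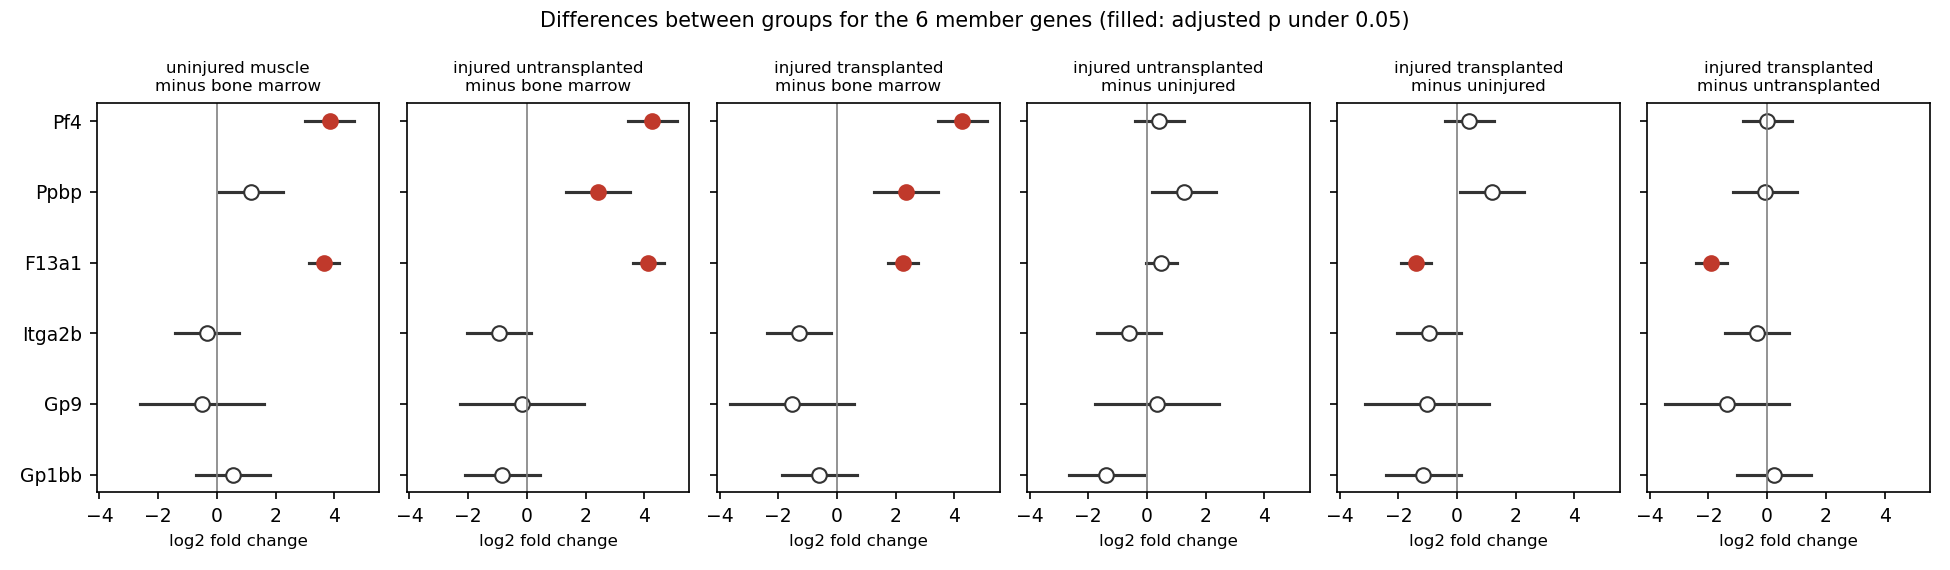
Log2 fold changes of the 6 member genes (rows) in 6 comparisons (panels), on the log2(intensity + 4) scale, with 95% confidence intervals from limma over 8 arrays; filled points have an adjusted p under 0.05. Pf4, Ppbp and F13a1 lie to the right of 0 in the panels against bone marrow, F13a1 lies to the left of 0 in transplanted injured muscle against both other muscle groups, and the receptor genes have open points throughout.

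Pf4 was high in every muscle group. Its intensity was 9385 and 7767 in transplanted injured muscle, 7821 and 9349 in untransplanted injured muscle, 5447 and 7520 in uninjured muscle, and 295 and 657 in bone marrow. All 6 muscle arrays lay above both marrow arrays, and the 2 injured groups overlapped. Means were 8576 ± 1144 in transplanted injured, 8585 ± 1081 in untransplanted injured and 6484 ± 1466 in uninjured muscle, against 476 ± 256 in bone marrow (SD, n = 2 each).

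Over bone marrow, Pf4 rose 19.2-fold in both transplanted injured muscle (log2 4.26 ± 0.36 SE, adjusted p = 0.000203) and untransplanted injured muscle (log2 4.27, adjusted p = 0.000208). In uninjured muscle it was 14.4-fold higher than in marrow (log2 3.85 ± 0.36, adjusted p = 0.000851). Leaving out the first or the second uninjured array gave 4.08 and 3.62 for that value, with adjusted p of 0.00104 and 0.000899. Between muscle groups the differences did not pass: transplanted over untransplanted injured muscle gave a log2 of -0.00 with a 95% interval of -0.84 to 0.83, transplanted injured over uninjured muscle gave 0.42 (adjusted p = 0.399), and untransplanted injured over uninjured muscle also gave 0.42 (adjusted p = 0.414).

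Ppbp, the neighbour of Pf4, was high in the injured groups. It read 278 and 274 in transplanted injured muscle, 274 and 309 in untransplanted injured muscle, 120 and 117 in uninjured muscle, and 28.9 and 87.1 in bone marrow. Both injured groups lay above uninjured muscle, which lay above both marrow arrays, one of which was under the filter level. Means were 276 ± 2.93 in transplanted injured, 291 ± 24.8 in untransplanted injured and 119 ± 1.90 in uninjured muscle, and 58.0 ± 41.1 in bone marrow (SD, n = 2 each).

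Ppbp rose 5.11-fold in transplanted injured muscle (log2 2.35 ± 0.47 SE, adjusted p = 0.00769) and 5.38-fold in untransplanted injured muscle (log2 2.43, adjusted p = 0.00705) over bone marrow. In uninjured muscle over bone marrow its log2 difference was 1.17 ± 0.47 (adjusted p = 0.228), a value that the marrow arrays decide: without bone marrow replicate 2 it was 1.90 (adjusted p = 0.0459) and without replicate 1 it was 0.43. Its differences from uninjured muscle were 1.19 in transplanted injured muscle (95% interval 0.10 to 2.28, adjusted p = 0.0881) and 1.26 in untransplanted injured muscle (0.17 to 2.36, adjusted p = 0.0831). Transplanted over untransplanted injured muscle gave -0.07, with an interval of -1.17 to 1.02.

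**Figure D2:**
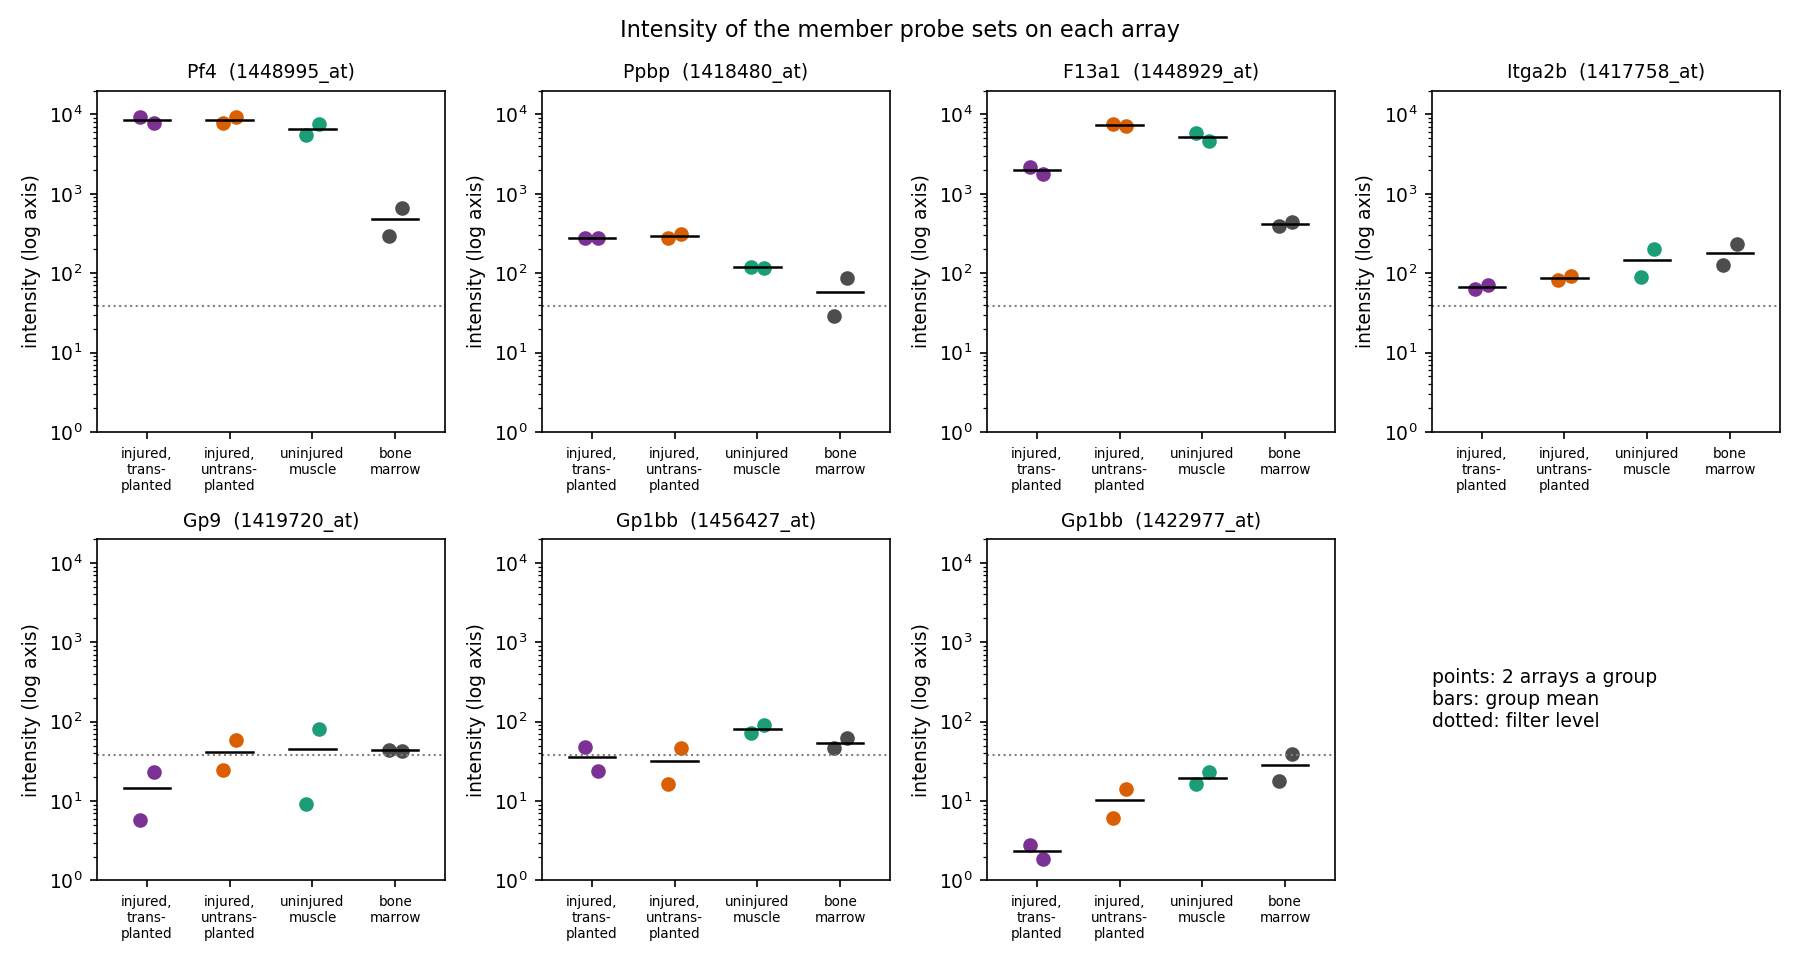
Intensity (log axis) of each member probe set on the 8 arrays, with 2 points a group, a bar at the group mean and a dotted line at the filter level of 38.4. Pf4 and F13a1 sit far above the line in all muscle groups, F13a1 is lower in transplanted than in untransplanted injured muscle, and the points of Gp9 and both Gp1bb probe sets scatter around or below the line.

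F13a1 differed between the injured groups. Its intensity was 2163 and 1786 in transplanted injured muscle, 7472 and 7173 in untransplanted injured muscle, 5898 and 4594 in uninjured muscle, and 389 and 435 in bone marrow. No 2 groups overlapped: untransplanted injured muscle was highest, then uninjured muscle, then transplanted injured muscle, then marrow. Means were 1974 ± 267 in transplanted injured, 7323 ± 212 in untransplanted injured and 5246 ± 922 in uninjured muscle, against 412 ± 32.8 in bone marrow (SD, n = 2 each).

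In transplanted injured muscle F13a1 was 3.72-fold lower than in untransplanted injured muscle (log2 -1.90 ± 0.23 SE, 95% interval -2.41 to -1.38, adjusted p = 0.0291). It ranked 13 by p among all tested probe sets, of which 37 were called lower and 4 higher. The size held and the call did not: over 19 other settings the log2 difference ran from -2.03 to -1.69, while the adjusted p ran from 2.71e-05 to 0.435 and missed the threshold in 10 of them. These 10 included the 4 that leave out an injured array, without which the adjusted p was 0.284 to 0.435, and the 2 that leave out a bone marrow array.

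F13a1 was also 2.65-fold lower in transplanted injured than in uninjured muscle (log2 -1.40, adjusted p = 0.00350), and stayed past the threshold without the first (-1.22) or the second (-1.58) uninjured array. Untransplanted injured over uninjured muscle gave 0.49 with an interval of -0.03 to 1.01 (adjusted p = 0.138), and 0.67 and 0.31 without the first and the second uninjured array. Over bone marrow it was 4.74-fold higher in transplanted injured muscle (adjusted p = 0.000413), 17.6-fold higher in untransplanted injured muscle (adjusted p = 3.63e-05) and 12.5-fold higher in uninjured muscle (log2 3.65, adjusted p = 0.000136), where leaving out the first or the second uninjured array gave 3.47 and 3.83, both past the threshold.

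Marker levels of other cells also differed between the groups, in part along another course than the members. The summed intensity of 18 macrophage markers was 111839 and 107130 in transplanted injured, 114299 and 122624 in untransplanted injured and 35892 and 59628 in uninjured muscle, against 10375 and 8894 in bone marrow. Like Pf4, the sum was lowest in marrow and similar in the injured groups. Unlike Pf4, which was not called over uninjured muscle, 11 markers were higher and 3 lower in untransplanted injured muscle, beside 8.77% and 15.1% of all tested genes. In transplanted injured over uninjured muscle 10 markers were higher and 3 lower, beside 10.5% and 20.8%. Of the 18 markers, 17 were higher in each injured group than in marrow and 13 were higher in uninjured muscle than in marrow. Of all tested genes, 12% were higher than in marrow in transplanted injured, 12.6% in untransplanted injured and 5.85% in uninjured muscle. None of the 18 was called between the injured groups, beside 0.274% of all tested genes lower and 0.0421% higher. There Cd163, the haptoglobin-haemoglobin receptor of resident macrophages, gave -1.64 (adjusted p = 0.0795). The part of these macrophage markers in the member results was not tested.

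Fibroblast marker sums, like F13a1, were lower in transplanted than in untransplanted injured muscle. The sum over 10 of them was 3876 and 4258 in transplanted injured, 20406 and 20621 in untransplanted injured and 32069 and 8727 in uninjured muscle, and 1162 and 2185 in bone marrow. None of the 10 was called between the injured groups, though their median log2 difference was -1.70, beside -0.00 over all tested genes. Of all tested genes 0.274% were called lower in transplanted than in untransplanted injured muscle and 0.0421% higher. Mast cell and basophil markers were also low after transplant, with sums of 320 and 267 in transplanted and 3353 and 2976 in untransplanted injured muscle, and 3 of 9 were called lower, among them Cma1, a mast cell chymase (log2 -4.07, adjusted p = 0.0123). Muscle fibre markers summed to 253 and 231 in transplanted and 1032 and 900 in untransplanted injured muscle, and 2 of 10 were called lower, Tnnc2, a fast-fibre troponin (at least 2.65-fold, adjusted p = 0.0291), and Mylpf, a fast myosin light chain (log2 -2.53, adjusted p = 0.0325). Like F13a1, these 3 named markers lost the call without any one of the 4 injured arrays (adjusted p = 0.191 to 0.435), and Tnnc2 and Mylpf also without either marrow array. Neutrophil and lymphoid marker sums went the other way, with no marker called. Neutrophil sums were 1163 and 1023 in transplanted and 494 and 569 in untransplanted injured muscle. Lymphoid sums were 517 and 496 in transplanted and 361 and 450 in untransplanted injured muscle. The part of any of these markers in the F13a1 result was not tested.

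**Figure D3:**
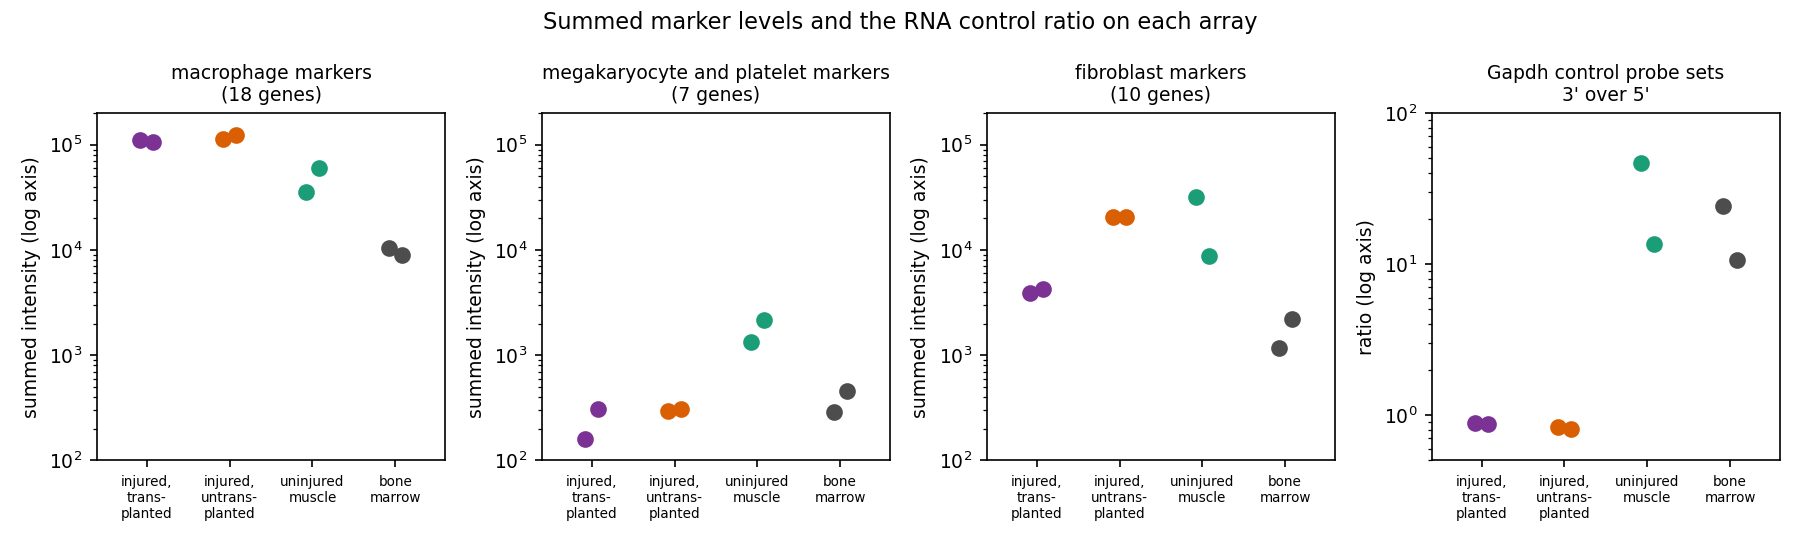
Summed intensity (log axis) of macrophage (18 genes), megakaryocyte and platelet (7 genes) and fibroblast markers (10 genes), and the 3′ over 5′ ratio of the Gapdh control probe sets (log axis), each as 2 arrays a group. Macrophage sums are high in both injured groups and lowest in bone marrow, the fibroblast sum is lower in transplanted than in untransplanted injured muscle, and the Gapdh ratio is under 1 in the injured groups and at least 10.7 elsewhere.

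The receptor genes stayed low. Itga2b read 63.8 and 71.2 in transplanted injured, 81.0 and 92.7 in untransplanted injured and 90.3 and 202 in uninjured muscle, and 125 and 232 in bone marrow. Both injured groups lay below marrow, and uninjured muscle overlapped both marrow and untransplanted injured muscle. The log2 difference from marrow was -1.29 in transplanted injured muscle (95% interval -2.38 to -0.20, adjusted p = 0.0693) and -0.95 in untransplanted injured muscle (adjusted p = 0.162). In 5 other settings the difference for transplanted injured muscle passed the threshold, among them the fit without uninjured muscle replicate 1 (adjusted p = 0.0209).

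Gp9, whose protein stabilises the von Willebrand factor receptor, read 5.84 and 23.2 in transplanted injured, 24.4 and 59.3 in untransplanted injured and 9.15 and 80.9 in uninjured muscle, and 44.5 and 42.5 in bone marrow. Only 4 of its 8 arrays reached the filter level, and the 2 uninjured muscle arrays lay on either side of both marrow arrays. Transplanted over untransplanted injured muscle gave a log2 of -1.37 with an interval of -3.48 to 0.74, and the other 5 adjusted p-values were between 0.230 and 0.910.

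For Gp1bb, a disulphide-linked chain of the same receptor, the brighter probe set (1456427_at) read 48.0 and 24.0 in transplanted injured, 16.5 and 47.1 in untransplanted injured and 71.7 and 90.2 in uninjured muscle, and 46.8 and 61.7 in bone marrow. Uninjured muscle lay above the injured groups, with log2 differences of -1.15 in transplanted (adjusted p = 0.142) and -1.39 in untransplanted injured muscle (adjusted p = 0.0974). The second probe set (1422977_at) reached the filter level on 1 array and was not tested. It read 2.78 and 1.86 in transplanted injured, 6.18 and 14.3 in untransplanted injured and 16.3 and 22.9 in uninjured muscle, and 18.1 and 39.2 in bone marrow. The Gp1bb probe sets ordered the groups differently, with uninjured muscle highest in one and bone marrow highest in the other.

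The sum of megakaryocyte and platelet markers was highest in uninjured muscle. Of 12 on the list 7 had a probe set, and the sum of these was 160 and 309 in transplanted injured, 297 and 309 in untransplanted injured and 1347 and 2182 in uninjured muscle, and 289 and 454 in bone marrow. Itgb3, the beta chain that pairs with Itga2b, stayed between 3.63 and 18.6 on all 8 arrays, under the filter level. The higher sum of uninjured muscle came with Vwf (807 and 1408) and Selp (228 and 467), which endothelial cells also make. The 10 endothelial markers summed there to 13453 and 11011, against 883 and 864 in transplanted injured muscle, 1053 and 992 in untransplanted injured muscle and 929 and 1171 in bone marrow. The part of endothelial cells in the higher sum of uninjured muscle was not tested.

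Among 21 further platelet receptor and adhesion genes with a probe set, 16 were tested. Transplanted injured muscle over bone marrow had 5 higher and 2 lower, and so had untransplanted injured muscle. Of all tested genes 12% were higher and 19.5% lower in transplanted, and 12.6% higher and 17.2% lower in untransplanted injured muscle. On the log2 scale Cd36, a scavenger receptor of platelets and macrophages, rose by 5.26 in transplanted and 4.04 in untransplanted injured muscle. P2ry12, the platelet ADP receptor, rose by 3.02 in transplanted and 3.50 in untransplanted injured muscle. Itga6, a laminin receptor chain, rose by 5.18 in transplanted and 4.28 in untransplanted injured muscle. F2r, the thrombin receptor, fell by 4.41 in transplanted injured muscle and by 3.45 in untransplanted injured muscle. Without transplanted injured replicate 1 that group had 3 higher and 1 lower.

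In uninjured muscle over bone marrow 5.85% of all tested genes were higher and 1.4% lower. Of the 16 receptor and adhesion genes 3 were higher there, Cd36 (4.89), Selp (2.86) and Esam (2.01). The last pair were lower again in untransplanted injured than in uninjured muscle, by -1.99 for Selp and -2.01 for Esam. That comparison had 3 of 16 higher and 3 lower, beside 8.77% of all tested genes higher and 15.1% lower. Leaving out 1 array moved these counts. Without uninjured replicate 2, uninjured muscle over marrow had 5 higher, and Esam lost its call there without any single array other than uninjured replicate 1. In untransplanted injured over uninjured muscle none was higher and 1 was lower without untransplanted injured replicate 1, 2 without replicate 2, and 3 without either transplanted injured array. Selp (adjusted p = 0.0824 and 0.0631) and Esam (0.109 and 0.0854) lost that call without the first and the second untransplanted injured array. None of the 16 was called by limma between transplanted and untransplanted injured muscle, beside 0.274% of all tested genes lower and 0.0421% higher. The list medians ran from -0.69 in untransplanted injured over uninjured muscle, beside -0.25 for all tested genes, to 0.26 in uninjured muscle over bone marrow, beside -0.06.

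Genes of granule cargo, platelet shape and signalling were mixed (26 tested of 29 with a probe set). Transplanted injured muscle over bone marrow had 9 higher and 3 lower, and untransplanted injured muscle 10 higher and 2 lower. Beside this, 12% of all tested genes were higher and 19.5% lower in transplanted, and 12.6% higher and 17.2% lower in untransplanted injured muscle. Thbs1, the alpha granule protein thrombospondin 1, was at 3087 ± 933 in transplanted injured and 2049 ± 47.9 in untransplanted injured muscle, against 67.2 ± 63.4 in bone marrow (SD, n = 2 each); its log2 rise was 5.77 in transplanted and 5.21 in untransplanted injured muscle. Sparc, a collagen-binding matrix protein also stored in platelets, was at 689 ± 3.09 in transplanted injured and 3142 ± 31.3 in untransplanted injured muscle (log2 -2.18, adjusted p = 0.0687). Uninjured muscle over bone marrow had 7 higher, beside 5.85% of all tested genes higher and 1.4% lower. Sparc was at least 54.9-fold and Vwf at least 25.3-fold higher there, since both were under the filter level in marrow. Counts on this list moved with 1 array left out. Over marrow, transplanted injured muscle had 6 higher and 1 lower without either marrow array and 5 higher and 1 lower without either of its own. Untransplanted injured muscle had 5 higher and 2 lower without its replicate 1, 6 higher and 1 lower without its replicate 2, and 15 higher and 4 lower without uninjured replicate 2. Uninjured muscle had 9 higher and 7 lower without its replicate 2.

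Of all tested genes, 19.5% were lower than in bone marrow in transplanted injured, 17.2% in untransplanted injured and 1.4% in uninjured muscle. Of 13 tested transcription factors of megakaryocytes and their progenitors, 8 were lower in transplanted injured muscle and 7 in untransplanted injured muscle than in bone marrow. None was called higher, beside 12% of all tested genes in transplanted injured, 12.6% in untransplanted injured and 5.85% in uninjured muscle. In uninjured muscle 2 of the 13 were lower. The counts of lower factors were 5 without transplanted injured replicate 1 and 4 without untransplanted injured replicate 2. In uninjured muscle the count was 0 without either marrow array and 1 without any one injured array. Gata2, a factor of progenitors and mast cells, was at 28.8 ± 4.32 in transplanted injured, 57.4 ± 12.6 in untransplanted injured and 641 ± 32.2 in uninjured muscle, and 457 ± 18.2 in bone marrow (SD, n = 2 each). Nfe2, needed for platelet release, was at 8.68 ± 5.37 in transplanted injured, 21.5 ± 3.70 in untransplanted injured and 85.7 ± 22.8 in uninjured muscle, and 423 ± 80.1 in bone marrow, and fell in each muscle group against marrow; in uninjured muscle that call was lost without either marrow array (adjusted p = 0.161 and 0.0985) or either untransplanted injured array. Gata1, the factor that drives many platelet genes, was at 21.6 ± 17.4 in transplanted injured, 21.2 ± 7.35 in untransplanted injured and 60.6 ± 0.24 in uninjured muscle, and 61.3 ± 23.3 in bone marrow, with no call. Runx1, a factor of blood stem cells and megakaryocytes, went the other way, at 322 and 301 in transplanted injured, 581 and 500 in untransplanted injured and 75.1 and 5.90 in uninjured muscle, and 29.4 and 166 in bone marrow. Over uninjured muscle it rose by 3.49 in transplanted injured (adjusted p = 0.0304) and 4.28 in untransplanted injured muscle (adjusted p = 0.0180), and over marrow it gave 2.07 in transplanted (adjusted p = 0.146) and 2.85 in untransplanted injured muscle (adjusted p = 0.0618). The rise over uninjured muscle was 1.995 (adjusted p = 0.0730) in transplanted and 2.78 (adjusted p = 0.0252) in untransplanted injured muscle without uninjured replicate 2. The call was lost without any one injured array in transplanted injured muscle, and without either of its own arrays in untransplanted injured muscle. Gata1 and Runx1 were singled out after their values were seen.

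The coagulation and fibrinolysis list put F13a1 beside its partners. Of 29 genes with a probe set 19 were tested, and F13b, the carrier subunit of factor XIII, and the 3 fibrinogen chains Fga, Fgb and Fgg were too low to test. Over bone marrow 12% of all tested genes were higher and 19.5% lower in transplanted injured muscle. The shares were 12.6% and 17.2% in untransplanted injured and 5.85% and 1.4% in uninjured muscle. On this list transplanted injured muscle over bone marrow had 7 higher and 1 lower, untransplanted injured muscle 10 higher and 0 lower, and uninjured muscle 6 higher and 0 lower. Without marrow replicate 1, transplanted injured muscle had 5 higher and none lower, and uninjured muscle 3 higher. Gas6, a vitamin K dependent ligand, rose in the 3 muscle groups, by 4.52 in transplanted injured, 5.56 in untransplanted injured and 4.95 in uninjured muscle on the log2 scale. F7, which starts the tissue factor pathway, was at 413 ± 34.9 in transplanted injured, 160 ± 6.49 in untransplanted injured and 86.8 ± 59.5 in uninjured muscle, against 8.90 ± 0.08 in bone marrow (SD, n = 2 each).

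Between the injured groups none of the 19 tested genes of the coagulation list passed the test in the limma fit. Of all tested genes only 0.274% were lower and 0.0421% higher there, so few calls among 19 genes would be made at that share. The 4 with the smallest p were Plat, the tissue plasminogen activator (log2 -1.99, adjusted p = 0.241), Tfpi2, a protease inhibitor (-1.76, adjusted p = 0.335), Pros1, the anticoagulant protein S (-1.36, adjusted p = 0.360), and F7 (1.34, adjusted p = 0.414). Without uninjured replicate 2, 1 gene of the list was called lower. Untransplanted injured over uninjured muscle had 2 of 19 higher, the annexin 2 partners Anxa2 (1.38) and S100a10 (1.05), and 1 lower, the protein C receptor gene Procr (-1.43). Of all tested genes 8.77% were higher there and 15.1% lower. That comparison had 5 higher and 2 lower without uninjured replicate 2, and 1 higher and none lower without either untransplanted injured array. S100a10 lost its call with any single muscle array left out.

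Tgm2, the tissue transglutaminase and a relative of F13a1, did not share the lower F13a1 level of transplanted against untransplanted injured muscle. It read 3553 and 2840 in transplanted injured, 3008 and 2438 in untransplanted injured and 3584 and 4061 in uninjured muscle, against 374 and 356 in bone marrow. Every muscle array lay above marrow, with a log2 rise of 3.11 in transplanted injured (adjusted p = 0.000126), 2.88 in untransplanted injured (adjusted p = 0.000171) and 3.37 in uninjured muscle (adjusted p = 0.000235). Between the injured groups, which overlapped, it gave 0.23 ± 0.23 SE (adjusted p = 0.980).

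Of 5 receptor genes listed for the platelet chemokines 2 were tested. Ccr1, a chemokine receptor of monocytes, rose by 3.18 in transplanted injured, 2.78 in untransplanted injured and 1.52 in uninjured muscle over bone marrow. Cxcr3, a receptor of activated lymphocytes, was lower than in marrow in all 3, by -1.92 in transplanted injured, -1.90 in untransplanted injured and -2.00 in uninjured muscle. In uninjured muscle Ccr1 lost its call with any single array left out other than marrow replicate 1 or uninjured replicate 2, and Cxcr3 lost its call without marrow replicate 1 (adjusted p = 0.0610). Neither was called between the injured groups, beside 0.274% of all tested genes lower and 0.0421% higher.

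Likeness to each member was ranked over all tested genes by Pearson's r on the log2 scale. The 8 arrays are 4 groups of 2, so r is given as a description. The genes were picked on these same arrays, so group differences they share with the member follow from the choice. Closest to Pf4 were Ier3 (r = 0.995), Timp2 (0.987), Folr2 (0.986), Sash1 (0.985) and Lipa (0.985). Folr2, a folate receptor of resident macrophages, was at 3983 and 3980 in transplanted injured, 3073 and 2958 in untransplanted injured and 1388 and 2562 in uninjured muscle, against 34.1 and 38.0 in bone marrow.

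Closest to F13a1 were Il6 (r = 0.994), Adamts4 (0.993), Pcolce (0.993), Col6a2 (0.990) and Pdzrn3 (0.987). Il6 encodes interleukin 6, Pcolce an enhancer of procollagen processing and Col6a2 a chain of type VI collagen. Being picked for likeness to F13a1, these genes are bound to be lower where F13a1 is lower, which is no separate result. All 5 were lower in the transplanted than the untransplanted injured mean, and Pcolce was called, at 260 and 243 in transplanted against 1462 and 1494 in untransplanted injured muscle (log2 -2.54, adjusted p = 0.0357), a call lost without any one injured or marrow array. Closest to Ppbp was Ptrhd1 (0.989), to Itga2b Ap2a1 (0.979), to Gp9 Sfxn3 (0.914) and to Gp1bb Npy1r (0.992). The last r joins dim signals, with Gp1bb at 16.5 to 90.2 and Npy1r at 1.40 to 58.8 over the 8 arrays. Among the members, Pf4 correlated with Ppbp at 0.893 and with F13a1 at 0.872, and with Itga2b at -0.548.

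**Figure D4:**
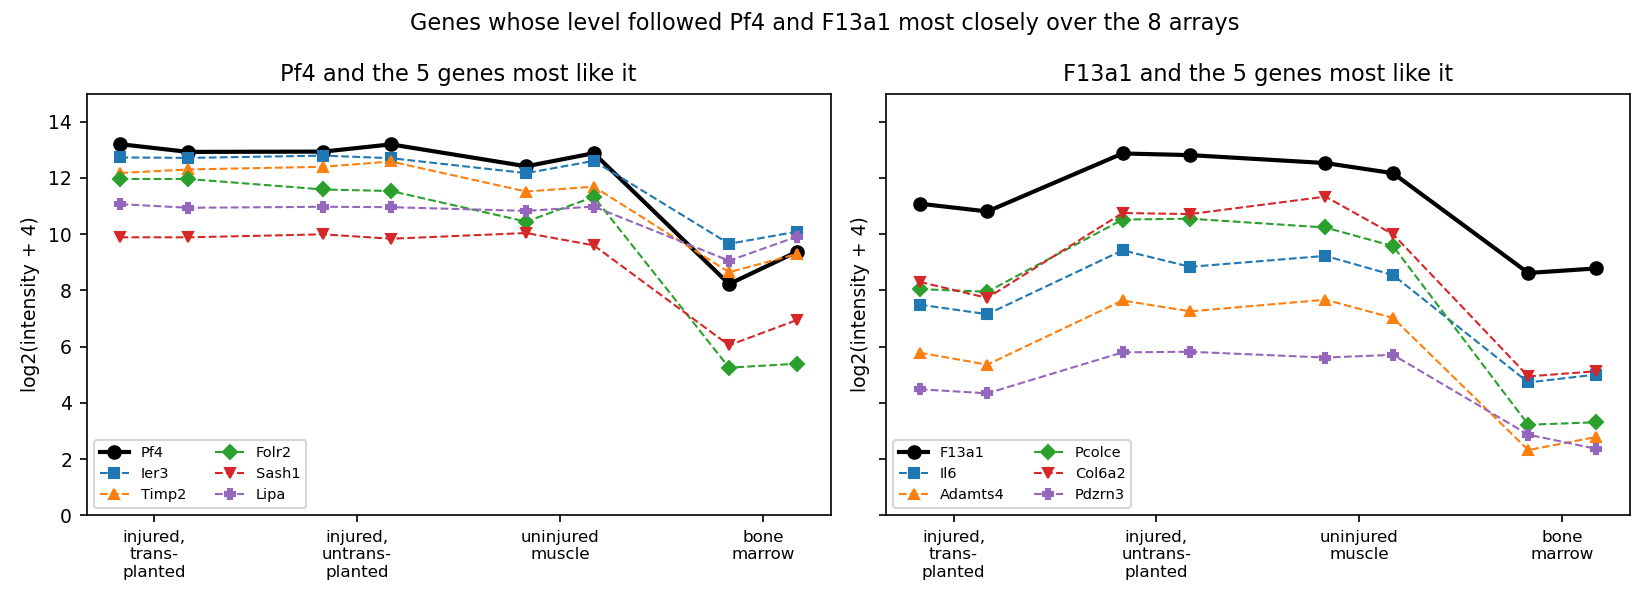
Log2(intensity + 4) of Pf4 and F13a1 (black) and of the 5 genes most like each on the 8 arrays, with 2 arrays a group and lines that only join the points. Pf4 and its nearest genes drop in bone marrow, while F13a1 and its nearest genes are lower in transplanted than in untransplanted injured muscle and lowest in bone marrow. The genes were picked by likeness on these arrays, so the shared course follows from the choice.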

How the data were processed

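The authors deposited linear intensities, 1 value per probe set and array. GCOS is named per the submitters' processing notes, and neither its version nor how probes were summarised is given in the sources used here. Each array had the same mean, 250 intensity units after trimming 2% at either end, so the deposited intensities were already scaled. No detection calls were used, and dim values are therefore not known to be above background. From 22690 probe sets, 64 controls were set aside. Symbols came from the platform annotation, updated through gene IDs: 20380 probe sets had 1 gene, 691 several and 1555 none.

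Values were floored at 1, 4 (the 10th percentile) was added, and log2 values were fitted in limma 3.58.1 (R 4.3.3) with 1 mean per group over all 8 arrays and an intensity trend, two-sided. Probe sets needed 2 arrays at 38.4 or more. A gene was represented by its brightest probe set. The code was tested on simulated data. With 2 arrays a group the precision is low, and folds understate the change of dim genes because of the added 4.

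Named were all members, up to 4 genes with the smallest p per list and comparison, the 5 genes most like each member, and controls. Further gene-level examples were singled out after their values were seen. A fold written as "at least" sets the brighter mean against the filter level. The members and lists were chosen with earlier results of these data known. Alternatives changed the normalization, the added constant, the filter, the trend, array weights, the arrays fitted, the probe set rule and the replicate block, and left out each array. Promoter sequences are RefSeq's. Protein sequences were not used here.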

Additional observations from a re-analysis of the deposited data

How the results depend on the processing

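Of 672 member results under 19 alternatives, 629 kept their direction and side of the threshold, 13 lost and 12 gained a call and 18, none of them called, changed sign. Against bone marrow, leaving out an array gave counts of called members of 2 to 3 in uninjured muscle, 2 to 4 in transplanted and 2 to 3 in untransplanted injured muscle. Transplanted over untransplanted injured muscle had 0 called, against 1, under quantile normalization, median centring, no intensity trend and the replicate block (F13a1 adjusted p = 0.0560, 0.0601, 0.0708 and 0.0521), and 0 to 1 with an array left out. Transplanted injured over uninjured muscle had 2 called under median centring, where Ppbp passed (1.47, adjusted p = 0.0386), and 1 to 2 with an array left out. Untransplanted injured over uninjured muscle had 0 to 1 with an array left out, Ppbp passing without either bone marrow array. Ppbp lost its call against bone marrow without either transplanted injured array (adjusted p = 0.0534 and 0.0513) and without untransplanted injured replicate 2 (0.0551). The causes were not tested.

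Signs turned as follows. For transplanted over untransplanted injured muscle, Pf4 gave 0.063 (quantile) and 0.13 (median centring) and, with an array left out, -0.14 to 0.13. Ppbp gave 0.060 (median centring) and, with an array left out, -0.16 to 0.011. Gp1bb gave -0.44 as the mean of its probe sets and, with an array left out, -0.42 to 0.90. Under quantile normalization Pf4 gave -0.049 in transplanted and -0.11 in untransplanted injured over uninjured muscle. With an array left out Gp9 gave -2.38 to 0.32 in transplanted and -1.003 to 1.69 in untransplanted injured over uninjured muscle, and -0.74 to 0.41 in untransplanted injured and -1.85 to 0.84 in uninjured muscle over marrow, where Itga2b gave -0.89 to 0.24 in uninjured muscle.

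Calls over all probe sets ran from 0 to 1125 (41 as reported) in transplanted over untransplanted injured muscle, 2402 to 6744 (5283) in transplanted injured and 1323 to 6067 (4235) in untransplanted injured over uninjured muscle, and, over marrow, 2592 to 7205 (5297) in transplanted injured, 2295 to 7018 (5040) in untransplanted injured and 288 to 3121 (991) in uninjured muscle. Median centring moved the median of all probe sets from 0.00 to 0.14 in transplanted over untransplanted injured muscle, from -0.19 to 0.09 in transplanted injured and from -0.14 to 0.00 in untransplanted injured over uninjured muscle, and from -0.03 to -0.21 in uninjured muscle over marrow. It moved the share of calls that were higher from 42.9% to 59.0% in transplanted injured over uninjured muscle and from 79.4% to 69.4% in uninjured muscle over marrow, and quantile normalization moved it from 9.76% to 22.2% in transplanted over untransplanted injured muscle. The last shift rests on few calls, as 9.76% stands for 4 of 41.

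List genes called between the injured groups, 0 as reported, rose in a fit of only those 4 arrays. They reached 5 of 19 tested genes of the coagulation list and 3 of 16 of the receptor list. The granule list reached 3 of 26 and the transcription factors 2 of 13. Over the settings tried, calls over all probe sets reached 1125, against 41 of 16289 as reported, so the rise was not confined to these lists.

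In 5 pairs of groups replicate numbers did not pair the arrays, as deviations of same-numbered arrays correlated between -0.03 and 0.00. Between uninjured muscle and marrow they correlated at 0.31, so same-numbered arrays of those groups shared part of their deviation. Besides F13a1, the block changed one member call, Itga2b in transplanted injured muscle over marrow (-1.29, adjusted p = 0.0415).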
